A study of Mus musculus with 24 samples.

Results

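Antisense transcripts that carry the name of the gene on the other strand were followed in mouse testis through the first wave of spermatogenesis. A gene was taken as antisense when its symbol ended in os, with or without a number, and the rest of the symbol was itself a gene of the count tables, as in *Pitpnm2os1* and its host gene *Pitpnm2*. This gave 154 antisense genes with 147 host genes among 24456 genes listed. Of the 154, 87 had enough counts to be tested, among 17170 genes tested in all, and 129 of the hosts were tested.

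The RNA came from testis of wild-type (WT) mice and of *Atad2* knockout (KO) mice on days 20, 22, 24 and 26 after birth, in 24 libraries. Each genotype had 4 libraries on day 20, 4 on day 22, 2 on day 24 and 2 on day 26. The study's methods give fewer samples for day 20 than the labels do, and the labels were followed. ATAD2 binds acetylated chromatin through its bromodomain. The libraries were made to learn what its absence does to gene expression while spermatids form. KO mice were homozygous for an allele in which a *lacZ* reporter is spliced to the first part of *Atad2* and a later exon was deleted with a Cre recombinase driven by the *CMV* promoter. That Cre is active throughout the body, so ATAD2 was missing from all cells and not from germ cells alone, and the WT mice carried neither change. The methods call the samples biological replicates, but the labels do not say that each is a separate animal, so p-values measure the spread between these samples, which may be technical.

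An antisense transcript is read from the strand opposite to a host gene, either from within the host, from a start site beside that of the host and pointing away from it, or from beyond the end of the host. Some are by-products of a promoter that fires in both directions, some are stable long non-coding RNAs, and some encode proteins of their own. The testis is known for the large number of long non-coding RNAs that are switched on when spermatocytes complete meiosis and become round spermatids.

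Gene counts summed to between 10709667 and 19491935 in a library, with the lowest total in WT_d20_2 (WT, day 20, replicate 2), and the antisense genes together took 0.0712% to 0.101% of them. *Atad2* itself was at 30.8 to 53.0 CPM (counts scaled to the library size) in the 12 KO libraries and at 76.1 to 171 CPM in the 12 WT libraries, with no overlap. The KO allele keeps the first part of the gene, and the counts do not separate that part from the rest. WT_d20_2 stood apart from the other WT libraries of its day for several antisense genes. Markers of Sertoli cells summed to 235 to 513 CPM across the libraries. The labels name testis as the tissue, while a protocol note in them speaks of purified spermatogenic cells, and these markers of a somatic cell were present in every library. The epididymis markers *Crisp1*, *Adam7* and *Lcn5* summed to over 20 CPM in 8 of the 24 libraries and reached 716 CPM in WT_d24_2, and counts of calls are given below without those 8 libraries. In bulk RNA, fewer cells of a type and less RNA per cell cannot be told apart.

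Positions were taken from the GENCODE M21 annotation and, for *G6bos*, *Ggnbp2os*, *Msx1os* and *Peg3os*, from RefSeq. Of the 154, 48 lay inside the host, 48 overlapped it head to head, so that the first parts of both genes were shared, and 26 started beside the host and pointed away without overlap. Another 15 overlapped the host tail to tail, 8 ran towards the host without overlap, 6 held the whole host within their own span, and for *G6bos*, *Msx1os* and *Peg3os* the position relative to the host was not known. The annotation gave 10 as protein coding, among them *Fancd2os*, *Trpc5os*, *Ccpg1os* and *Wdr83os*, which encodes a membrane-insertion factor of the endoplasmic reticulum. The 67 antisense genes that were not tested never exceeded 15 counts in a library, and 8 of them, including *Hnf4aos*, *Otx2os1* and *Msx1os*, had no count in any. Of 20 antisense genes whose hosts were on a chosen list of developmental transcription factors, which is not complete, 8 were tested.

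The start sites of 4 antisense genes that rose steeply with age are shown. Each lies inside its host, 20035 bases or more from the host's own start. Each window is from RefSeq (GRCm38.p6) and runs 5′ to 3′ on the antisense strand over 300 bases, 250 before the annotated start and 50 after it. *Sox5os3* is at chr6:144672618-144672917 on the plus strand, *Pitpnm2os1* at chr5:124229475-124229774 on the plus strand, *Ube4bos3* at chr4:149334389-149334688 on the plus strand and *Tmem132cos* at chr5:127281574-127281873 on the minus strand. Capitals mark matches to the cyclic AMP response element TGACGTCA or to TGACG, which is contained in it, to the MYB motif AACNGTT, or to the RFX motif GTTGCCA, each searched on both strands.
Sox5os3: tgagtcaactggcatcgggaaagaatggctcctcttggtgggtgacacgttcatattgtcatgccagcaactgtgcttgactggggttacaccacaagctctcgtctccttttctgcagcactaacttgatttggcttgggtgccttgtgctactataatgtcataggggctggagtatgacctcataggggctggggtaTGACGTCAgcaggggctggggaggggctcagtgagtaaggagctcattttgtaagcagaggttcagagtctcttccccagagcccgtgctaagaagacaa
Pitpnm2os1: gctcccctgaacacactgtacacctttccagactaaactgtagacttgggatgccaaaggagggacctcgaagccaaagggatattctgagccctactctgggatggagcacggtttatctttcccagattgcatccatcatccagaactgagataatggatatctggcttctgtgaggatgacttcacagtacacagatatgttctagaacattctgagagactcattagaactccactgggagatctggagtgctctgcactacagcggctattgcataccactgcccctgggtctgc
Ube4bos3: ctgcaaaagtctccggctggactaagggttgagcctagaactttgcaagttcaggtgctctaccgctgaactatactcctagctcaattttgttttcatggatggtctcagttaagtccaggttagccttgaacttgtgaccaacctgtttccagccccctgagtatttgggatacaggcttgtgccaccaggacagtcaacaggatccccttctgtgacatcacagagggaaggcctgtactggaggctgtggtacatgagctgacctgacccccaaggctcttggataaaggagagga
Tmem132cos: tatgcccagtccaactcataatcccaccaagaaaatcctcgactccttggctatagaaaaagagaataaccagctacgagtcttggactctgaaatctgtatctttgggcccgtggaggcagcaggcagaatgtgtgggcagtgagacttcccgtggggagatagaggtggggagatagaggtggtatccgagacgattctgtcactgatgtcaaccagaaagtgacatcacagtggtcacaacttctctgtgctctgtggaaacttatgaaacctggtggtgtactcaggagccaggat
Only the *Sox5os3* window of these 4 held a match, a full TGACGTCA beginning 50 bases before the start. *Ccdc34os* also rose steeply and lies inside its host, 32662 bases from the host's start. Its window is not printed and held no match. Windows were on hand for 121 of the 154 antisense genes. TGACGTCA was in 1.65% of them and in 1.88% of the windows of all 27025 genes. TGACG was in 23.1% and 21%, AACNGTT in 4.13% and 4.36%, and GTTGCCA in 4.13% and 4.46%, so the share that held each motif lay close to that of all genes. Among 29 antisense genes that rose with age in WT, 1 window held TGACGTCA and 4 held TGACG (13.8%), and among 40 tested genes that did not rise 15 held TGACG (37.5%). These are counts of letters in a window and were not tested further.

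The largest differences among the antisense genes were with age. Between days 20 and 26 in WT, 32 of the 87 rose and 7 fell (edgeR, adjusted p under 0.05), which is 44.8% called, against 42.5% of all genes. Of all genes, 24.4% rose and 18.1% fell. The median log2 change was 0.31 over the tested antisense genes and -0.04 over all genes, and it stayed at 0.31 with genes that had no day 20 count set at their lower bound. In KO, 39 rose and 6 fell, 51.7% against 52.2% of all genes, with a median of 0.53. Hosts were more evenly split, with 38 of 129 rising and 27 falling in WT. Of the 32 that rose in WT, 22 rose 4-fold or more, with genes that had no day 20 count taken at their lower bound, and 19 had no more than 3 counts in any WT library of day 20. Such genes passed the filter on low counts through groups in which they are higher, so the excess of rises and the median over tested antisense genes are descriptions and support no difference from other genes. Markers of other cells moved over the same days in WT. All 6 round spermatid markers rose (median log2 change 7.46), as did all 4 of elongating spermatids (11.13) and all 5 of Leydig cells (2.16), while all 3 of peritubular cells fell (-1.13) and 3 of 6 of Sertoli cells fell (-0.44). The part of these cells in the antisense changes was not tested.

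The 8 with the steepest fitted rise, among those at a mean of 1 CPM or more, were *Saxo1os*, *Ube4bos3*, *Pitpnm2os1*, *Slfn5os*, *Sox5os3*, *Tmem132cos*, *Lyzl4os* and *Ccdc34os*. Most had no count in most WT libraries at day 20, a few counts at day 22, and several CPM at day 26. A fold change against a group with no count is given as a lower bound, against 3 counts in the shallowest library of that group, which is 0.316 CPM for WT at day 20.

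*Saxo1os* lies at chr4:86558446-86559804 and starts 118 bases from the start of *Saxo1*, which encodes a microtubule protein of the sperm tail, pointing the other way. It had no count in the 4 WT libraries of day 20. It was at 0.563, 0.251, 0.0582 and 0.102 CPM in WT at day 22, at 3.10 and 2.51 CPM at day 24, and at 11 and 7.32 CPM at day 26. The WT libraries of the 4 days thus followed each other without overlap, and the rise was at least 29.0-fold (edgeR adjusted p = 6.22e-07). *Saxo1* rose beside it, with a log2 change of 9.21 ± 1.15 (SE; adjusted p = 2.95e-06), from 0 to 0.288 CPM at day 20 to 58.9 and 61.8 CPM at day 26.

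*Ube4bos3* (chr4:149334639-149335897) lies inside *Ube4b*, which encodes a ubiquitin chain assembly factor, and 296 of its exon bases lie over host exons. It was at 0 in all 4 WT libraries of day 20, at 0.102 to 0.334 CPM in WT at day 22, at 2.48 and 1.63 CPM at day 24, and at 8.86 and 6.10 CPM at day 26. The rise was at least 23.7-fold (adjusted p = 1.68e-05). The host moved the other way by a small amount, from 88.8 to 115 CPM at day 20 to 81.6 and 85.5 CPM at day 26, a log2 change of -0.33 ± 0.129 (adjusted p = 0.0424).

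*Pitpnm2os1* (chr5:124229725-124237137) lies inside *Pitpnm2*, a phosphatidylinositol transfer protein gene, with no exon over those of the host. It went from no count in WT at day 20 to 1.90, 0.418, 1.22 and 1.07 CPM at day 22, 4.96 and 3.67 CPM at day 24, and 6.37 and 5.74 CPM at day 26. All WT libraries of a later day lay above those of the day before, and the rise was at least 19.2-fold (adjusted p = 9.05e-07). *Pitpnm2* rose from 32.4 to 74.3 CPM to 98.0 and 85.7 CPM, a log2 change of 0.59 ± 0.226 (adjusted p = 0.0386).

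*Slfn5os* overlaps head to head with *Slfn5*, an interferon-inducible Schlafen gene, and 559 of its exon bases lie over host exons. It was at 0 in WT at day 20, at 0 to 0.307 CPM at day 22, at 1.30 and 1.29 CPM at day 24 and at 5.04 and 4.23 CPM at day 26. Its rise was at least 14.7-fold (adjusted p = 8.39e-06). *Slfn5* was at 17.0 to 25.3 CPM at day 20 and at 19.3 and 15.6 CPM at day 26, and the change of -0.33 ± 0.237 on the log2 scale did not pass the test (adjusted p = 0.275).

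*Sox5os3* lies inside *Sox5*, a transcription factor gene. It had 1 count in the 4 WT libraries of day 20 and was at 13.9 and 9.61 CPM at day 26, a ratio of 640 with an exact 95% interval of 114 to 25400 that covers counting error only. *Sox5* rose as well, by 2.60 ± 0.354 (adjusted p = 5.92e-06), from 10.1 to 12.9 CPM to 61.1 and 72.8 CPM. Of the antisense genes beside the listed transcription factors, *Dlx6os1* and *Hoxd3os1* also rose in WT, and the other 5 tested did not pass.

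*Tmem132cos* had 1 count at day 20 and was at 6.26 and 6.60 CPM at day 26, a ratio of 342 (60.8 to 13600). Its host *Tmem132c* was at 1.87 to 3.18 CPM and then at 1.27 and 2.22 CPM, with a log2 change of -0.48 ± 0.408 (adjusted p = 0.362). *Lyzl4os* and *Lyzl4*, a lysozyme-like gene, rose together, by 7.15 ± 0.824 and 6.78 ± 0.797 on the log2 scale (adjusted p = 8.98e-07 and 1.32e-06). *Ccdc34os* rose by 7.03 ± 0.943 (adjusted p = 6.03e-06) from 4 counts at day 20, all in WT_d20_4, to 10.7 and 11 CPM. *Ccdc34*, a gene for a coiled-coil protein of the sperm tail, changed by -0.15 ± 0.205 (adjusted p = 0.583).

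**Figure D1:**
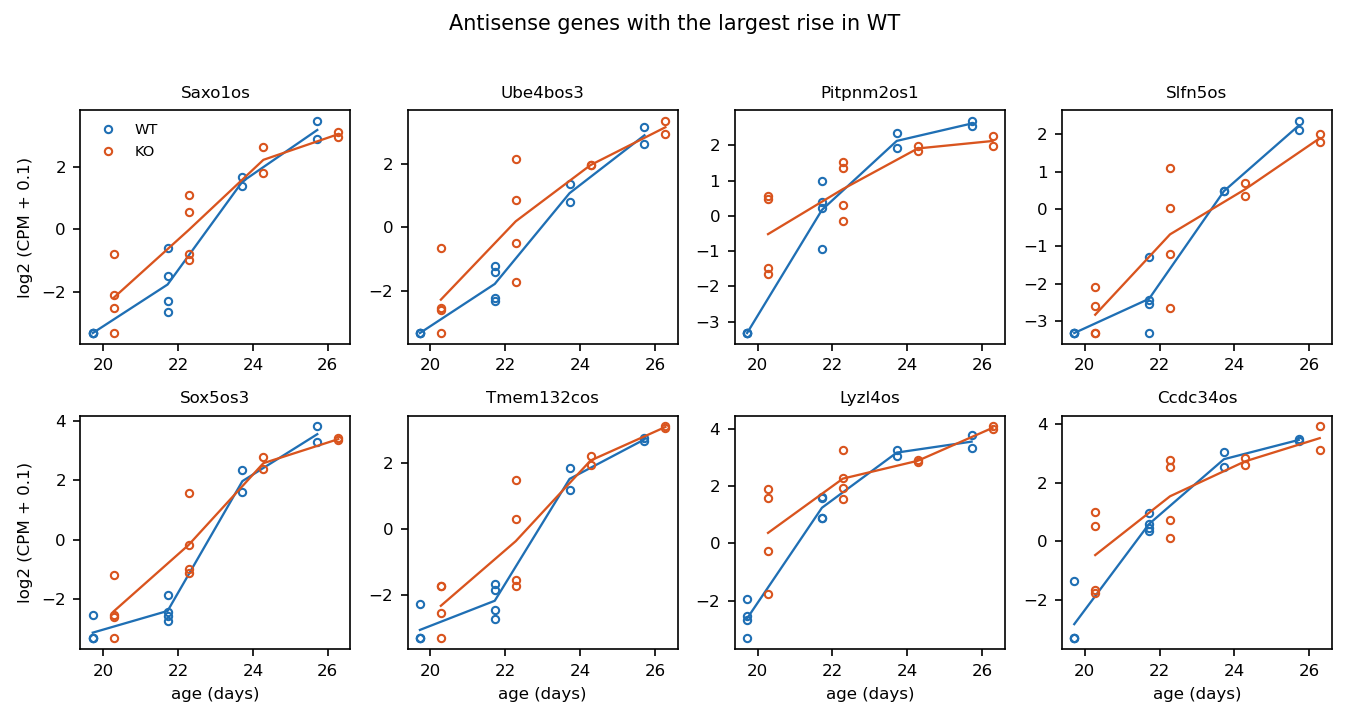
Levels of the 8 antisense genes with the largest rise in WT by age in days, as log2 of CPM plus 0.1. Each circle is a library and lines join group means, with WT in blue and KO in orange. In WT, *Saxo1os*, *Ube4bos3*, *Pitpnm2os1* and *Slfn5os* had no count at day 20, and the mean of all 8 was highest at day 26.

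Host genes did not share one direction. Of the 32 antisense genes that rose in WT, the host rose in 16 pairs, was not called in 13, fell in 2 (*Ube4b* and *Dgke*) and was not tested in 1 (*Gad1*). Of the 7 that fell, the host fell in 3, was not called in 3 and rose in 1 (*Phtf1*). In the 48 pairs whose antisense gene was not called, the host rose in 9 and fell in 12.

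**Figure D2:**
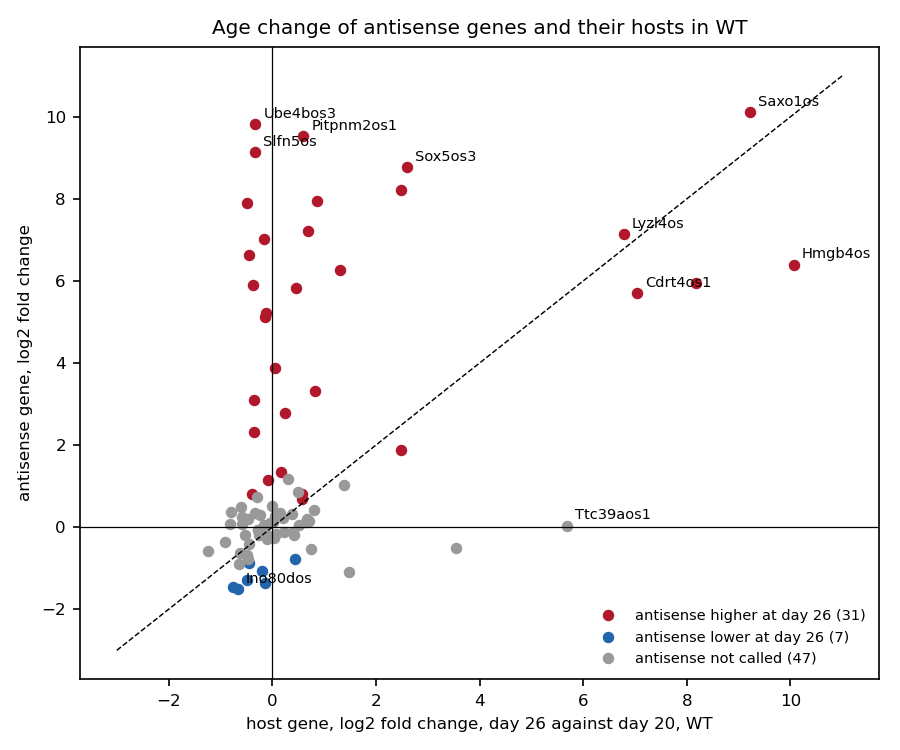
Log2 fold change from day 20 to day 26 in WT of each antisense gene (vertical axis) and of its host (horizontal axis), for 85 pairs in which both were tested. Red, blue and grey mark antisense genes that rose (31), fell (7) or were not called (47), and the dashed line marks equal change. *Ube4bos3* and *Slfn5os* lie high above a host change near 0, and *Saxo1os* and *Lyzl4os* lie beside hosts that rose.

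To compare both genes of a pair within a library, the log2 ratio of antisense to host was fitted with limma. The fit held 1976 pairs of overlapping or paired genes on opposite strands. In the 1891 pairs outside the antisense set, the ratio was that of the plus-strand gene to the minus-strand gene. Between days 20 and 26, averaged over both genotypes, the ratio changed in 46 of 85 antisense pairs, which is 54.1% against 60.9% of all pairs. Of the 46, 33 went up and 13 down. Over all pairs 29.5% went up and 31.4% down, but direction there mostly follows the strand and gives no background for that split. The ratios of genes with few or no counts at day 20 depend on the prior count of 2 added to each gene, so their size is a fitted value and no bound. The largest fitted rises were in *Tmem132cos* (5.80 ± 0.561, adjusted p = 1.64e-08), *Ube4bos3* (5.73 ± 0.5, adjusted p = 4.11e-09) and *Slfn5os* (5.27 ± 0.425, adjusted p = 1.75e-09), whose hosts changed by less than 0.5 on the log2 scale in WT. The largest fitted falls were in *Ttc39aos1* (-5.28 ± 0.720, adjusted p = 1.94e-06), *Hmgb4os* (-4.91 ± 0.543, adjusted p = 1.01e-07) and *Cdrt4os1* (-3.45 ± 0.475, adjusted p = 2.27e-06), whose hosts rose more than they did. With a prior count of 0.5 these 6 values were 7.15, 7.24, 6.94, -5.46, -4.12 and -2.66 in the same order.

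*Hmgb4os* starts 87 bases from *Hmgb4*, a gene for a testis HMG-box protein of spermatids, and points away from it. It was at 0 in WT at day 20 and at 0.927 and 0.430 CPM at day 26, at least 2.15-fold higher, while *Hmgb4* went from 0 to 0.144 CPM to 73.3 and 63.8 CPM. *Cdrt4os1* overlaps the tail of *Cdrt4* and went from 1 count in 4 libraries to 1.22 and 1.58 CPM, a ratio of 73.6 (12.5 to 2970), while *Cdrt4* went from 0.0578 to 0.576 CPM to 38.4 and 32.5 CPM. *Ttc39aos1* starts 468 bases from *Ttc39a* and was at 0.314, 1.16, 1.5 and 0.432 CPM in WT at day 20 and at 0.174 and 1.65 CPM at day 26. Its groups overlapped and its own change did not pass (0.04 ± 0.751, adjusted p = 0.974), while *Ttc39a* rose from 0.632 to 2.60 CPM to 86.9 and 101 CPM. Both its later WT libraries with the higher value, WT_d24_2 at 2.04 CPM and WT_d26_2, were among those with epididymis markers, and their part in its level was not tested.

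The position of the antisense gene relative to the host went with different counts of calls in WT. Of 25 tested inside the host, 16 rose and 2 fell, beside 24.4% and 18.1% of all genes, and 11 of those 16 had no more than 3 counts in any WT library of day 20, so that they passed the filter through later groups. Of 25 overlapping head to head, 5 rose and 4 fell, and of 21 that started beside the host and pointed away, 5 rose and 1 fell. Of 7 overlapping tail to tail, 4 rose, and of 4 that enclosed the host, 2 rose. None of the 5 that ran towards the host without overlap was called. The median log2 change was 2.79 inside the host, 0.12 head to head and 0.20 pointing away, and differences between positions were not tested. Of 9 tested protein-coding antisense genes, 1 rose (*Fancd2os*) and 1 fell (*Wdr83os*).

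**Figure D3:**
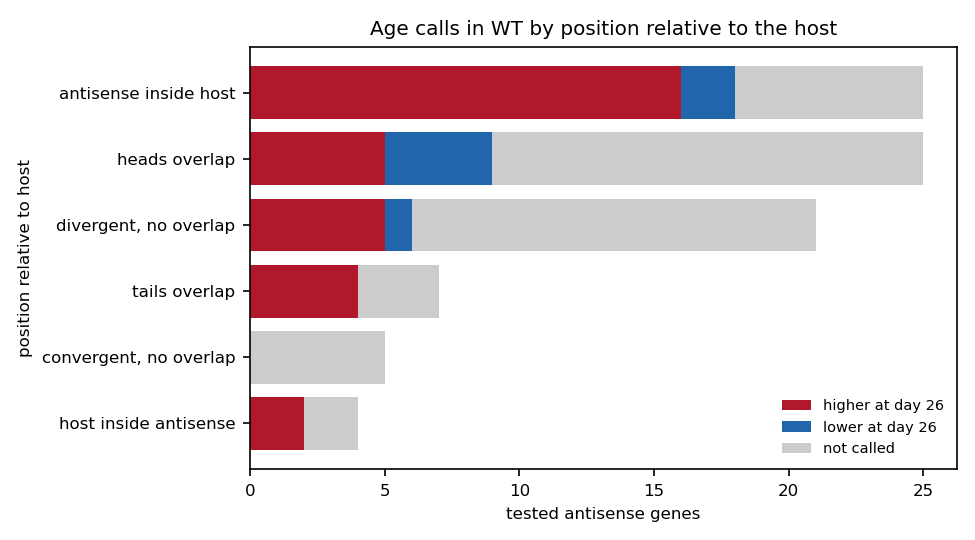
Tested antisense genes (horizontal axis, number of genes) by position relative to the host, split into those higher at day 26 than at day 20 in WT, lower, or not called. Inside the host 16 of 25 rose, against 5 of 25 head to head.

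The 6 antisense genes with the steepest fall in WT, at a mean of 1 CPM or more, fell by less than the steepest rises. *Ino80dos*, head to head with a subunit gene of the INO80 chromatin remodeller, was at 1.34, 2.63, 2.37 and 0.720 CPM at day 20 and at 0.521 and 0.717 CPM at day 26 (log2 change -1.5 ± 0.518, adjusted p = 0.0243). The lowest day 20 library lay next to the day 26 libraries, and the call was lost without WT_d20_3, WT_d26_1 or WT_d26_2 (adjusted p = 0.0540, 0.163 and 0.0761). *Dnm3os*, inside the dynamin gene *Dnm3* and known as the precursor of a microRNA cluster, was at 38.4, 91.1, 46.5 and 43.1 CPM at day 20 and at 20.1 and 22.2 CPM at day 26. It fell by 1.37 ± 0.351 on the log2 scale (adjusted p = 0.00371) without overlap, and in KO by 1.49 ± 0.356 (adjusted p = 0.00178). Without the 8 libraries with epididymis markers, which leaves 1 WT library at day 26, the WT change was -1.51 and the call was lost (adjusted p = 0.0569).

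*Rab26os* fell by 1.29 ± 0.394 (adjusted p = 0.0119), *Wdr83os* by 1.06 ± 0.182 (adjusted p = 7.65e-05) and *Fam120aos* by 0.86 ± 0.196 (adjusted p = 0.00132). Without those 8 libraries *Wdr83os* was still called (adjusted p = 0.00851), and *Fam120aos* and *Rab26os* were not (-0.80 and -1.59, adjusted p = 0.0793 and 0.0771). Without WT_d26_1 the *Rab26os* call was lost (adjusted p = 0.114). *Phtf1os*, head to head with *Phtf1*, was at 9.59, 18.4, 8.03 and 8.86 CPM at day 20 and at 6.60 and 6.46 CPM at day 26 (-0.77 ± 0.280, adjusted p = 0.0321). Its day 20 mean leans on WT_d20_2, and without that library the change was -0.47 (adjusted p = 0.0664). It was also lost without WT_d26_1 or WT_d26_2 (adjusted p = 0.112 and 0.147). *Phtf1* itself rose by 0.43 ± 0.137 (adjusted p = 0.0152).

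Between KO and WT, the antisense genes that differed were mostly higher in KO. At day 20, 5 of 87 were higher in KO and 0 lower, 5.75% against 3.34% of all genes (2.98% higher and 0.361% lower). At day 22, 3 were higher and 0 lower, 3.45% against 2.51% (1.26% higher and 1.25% lower), and 1 with the replicate number as a block, 1.15% against 1.37%. At days 24 and 26, edgeR called 0 of 87 on each day, against 0.0874% (0.0699% lower) and 0.0466% of all genes, with 8 and 9 (9.2% and 10.3%, beside 5.23% and 11.5% of all genes) at an unadjusted p under 0.05. DESeq2 also called 0 on each, against 0.244% and 1.02% of all genes. Averaged over the 4 days, 7 were higher and 1 lower, 9.2% against 7.08% (3.52% higher and 3.56% lower). DESeq2 called 8 at day 20, 9 at day 22 and 14 over the mean (8.51%, 9.09% and 13.1% of those it tested, against 5.05%, 4.08% and 9.65% of all genes). Fitted on the libraries of 1 day alone, edgeR called 0 at day 20 (0.0328% of all genes) and 0 at day 22 (0.438%), so that every call of those days was lost, while it called 9 at day 26, 11.2% against 12.8% of all genes. For a difference between genotypes in the change with age, edgeR called 0 of 87 antisense genes and 0% of all genes, with 15 antisense genes (17.2%) and 10.8% of all genes at an unadjusted p under 0.05. DESeq2 called 3, all with a lower change in KO (3.9% against 1.29% of all genes), and edgeR called 5 without KO_d20_2 (5.75% against 1.9%).

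At day 20 the antisense genes higher in KO were *Lyzl4os*, *Pitpnm2os1*, *Fancd2os*, *Zfp85os* and *Dgkeos*. *Lyzl4os* was at 0.725, 0.196, 2.91 and 3.66 CPM in KO and at 0.157, 0, 0.0578 and 0.0720 CPM in WT. All KO libraries lay above all WT libraries, with a log2 difference of 4.5 ± 0.892 (adjusted p = 0.0103, and 0.0538 without WT_d20_3). *Lyzl4* was higher too (3.27 ± 0.880, adjusted p = 0.046). *Pitpnm2os1* was at 0.218, 0.262, 1.39 and 1.29 CPM in KO and at 0 in all 4 WT libraries, at least 2.5-fold higher (adjusted p = 0.0104). *Pitpnm2* was at 55.1 to 83.2 CPM in KO and 32.4 to 74.3 CPM in WT, a log2 difference of 0.15 ± 0.189 that did not pass (adjusted p = 0.838).

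*Fancd2os* overlaps the tail of *Fancd2*, a gene of DNA crosslink repair. It was at 2.18, 1.77, 6.54 and 7.99 CPM in KO and at 0.629, 0.737, 0.578 and 1.51 CPM in WT. The groups did not overlap, and the log2 difference was 2.41 ± 0.489 (adjusted p = 0.0109, and 0.0597 without WT_d20_3), while that of *Fancd2* was 0.02 ± 0.121 (adjusted p = 0.974). *Zfp85os*, which encloses the zinc finger gene *Zfp85*, was at 2.10, 1.44, 3.04 and 3.86 CPM in KO and at 1.34, 1.16, 0.520 and 1.37 CPM in WT (1.28 ± 0.293, adjusted p = 0.0166). *Dgkeos*, head to head with the diacylglycerol kinase gene *Dgke*, was at 6.17, 4.71, 4.95 and 6.37 CPM in KO and at 4.24, 2.32, 2.95 and 2.74 CPM in WT (0.85 ± 0.208, adjusted p = 0.0242). Neither gene overlapped between groups, and *Zfp85os* was picked for mention after its values were seen. The *Zfp85os* call was lost without KO_d20_3, KO_d20_4 or WT_d20_3 (adjusted p = 0.0610, 0.0939 and 0.0844), and the *Dgkeos* call without KO_d20_1, KO_d20_4, WT_d20_2, WT_d20_3 or WT_d20_4 (adjusted p = 0.0612, 0.102, 0.0672, 0.0837 and 0.0637).

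At day 22 the antisense genes higher in KO were *Sox5os3*, *Tmem132cos* and *Prkag2os1*. *Sox5os3* was at 0.363, 2.83, 0.791 and 0.402 CPM in KO and at 0.0704, 0.0836, 0.175 and 0.0511 CPM in WT (3.43 ± 0.738, adjusted p = 0.0184). *Tmem132cos* was at 0.242, 2.71, 1.12 and 0.201 CPM in KO and at 0.211, 0.0836, 0.175 and 0.0511 CPM in WT (2.99 ± 0.734, adjusted p = 0.0331). KO_d22_2 was the highest KO library for both, and the KO and WT values of *Tmem132cos* overlapped. Without KO_d22_2 the differences were 2.34 and 1.95 (adjusted p = 0.103 and 0.236). Both calls were also lost without WT_d22_2, WT_d22_3 or WT_d22_4 (adjusted p = 0.0551 to 0.0977 for *Sox5os3* and 0.0847 to 0.151 for *Tmem132cos*), and that of *Tmem132cos* without KO_d22_3 (adjusted p = 0.0560). With the replicate number as a block, *Sox5os3* was still called (adjusted p = 0.0496), and *Tmem132cos* and *Prkag2os1* were not (adjusted p = 0.0647 and 0.0839). *Prkag2os1*, inside a regulatory subunit gene of AMP-activated kinase, had 2 counts in the 4 WT libraries and was at 0.0605, 1.20, 0.593 and 0.134 CPM in KO. It too was picked after its values were seen. That is a ratio of 15.9 with an exact 95% interval of 4.06 to 137 (adjusted p = 0.0419), and leaving out 1 library ended the call in 16 of 24 fits.

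**Figure D4:**
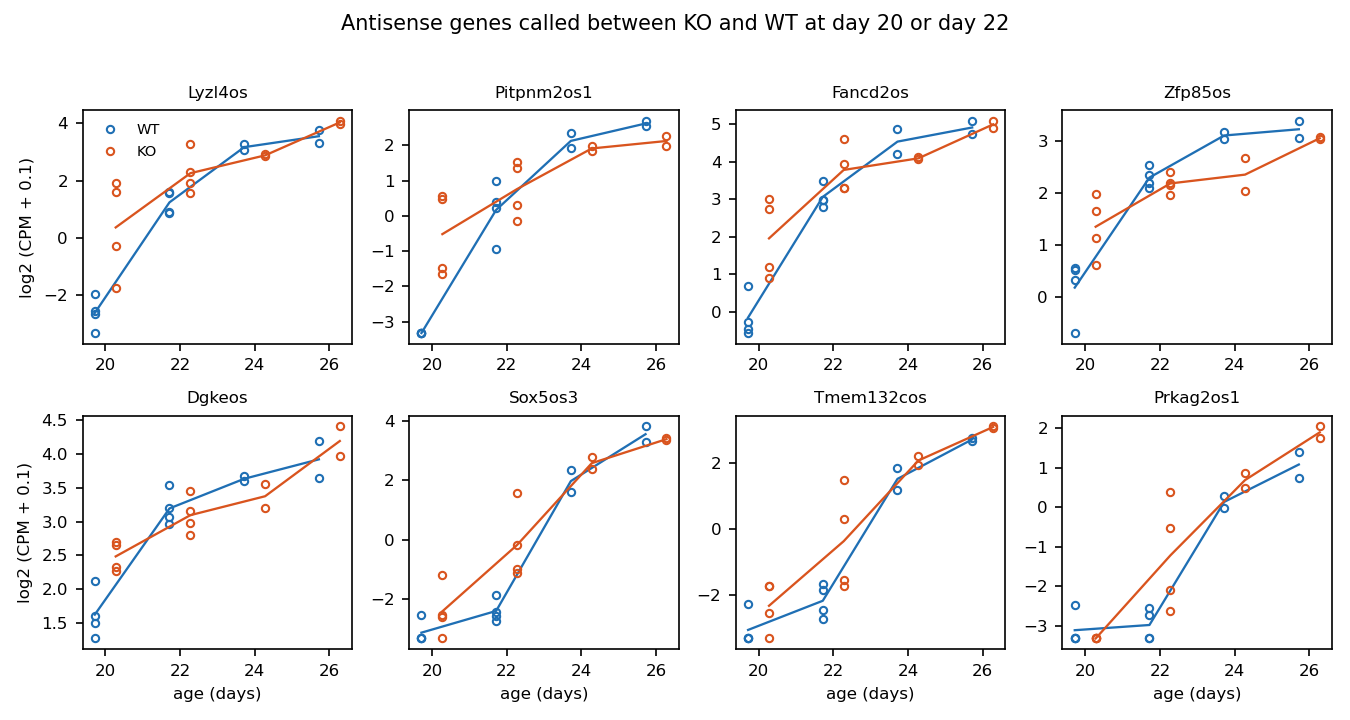
Levels of the 8 antisense genes called between KO and WT at day 20 (*Lyzl4os* to *Dgkeos*) or day 22 (*Sox5os3* to *Prkag2os1*), as log2 of CPM plus 0.1 by age in days. Each circle is a library, lines join group means, WT is blue and KO orange. KO lies above WT at day 20 for the first 5.

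Markers of later germ cells differed between genotypes on the same days, though not every list on each day. At day 20 all 6 round spermatid markers were higher in KO, with a median log2 difference of 3.87, and they summed to 10.3 to 90.2 CPM in KO and 3.58 to 12 CPM in WT. At day 22 all 4 elongating spermatid markers were higher in KO, summing to 4.36 to 199 CPM against 1.09 to 4.23 CPM. At day 20, 0 of 4 elongating spermatid markers were called (median 3.34), at 0 to 18.3 CPM in KO and 0.157 to 1.66 CPM in WT. At day 22, 0 of 6 round spermatid markers were called (median 1.23). Of 5 pachytene markers 1 was higher in KO at day 20 (median 0.31) and 0 were called at day 22 (0.01). Of 5 early meiosis and 6 spermatogonia markers 0 were called on either day. Of the Leydig markers 0 of 5 were called at day 20 (median 1.07; summed 258 to 651 CPM in KO and 246 to 349 CPM in WT). Of the peritubular markers 0 of 3 were called at day 20 (median -0.53) or day 22 (-0.67), and 2 were lower in KO over the mean of the days (-0.45). Over that mean, 4 of 6 round spermatid markers (median 1.26) and 4 of 4 elongating spermatid markers (2.81) were higher in KO. The part of these cells in the calls was not tested. A stage score, the mean of the round spermatid markers minus that of the pachytene markers, was -0.97 ± 1.42 (SD, n = 4) in KO and -3.28 ± 0.73 (SD, n = 4) in WT at day 20. With that score in the fit, edgeR called 0 antisense genes at day 20, 0 at day 22 and 2 over the mean of the days, against 0.0233%, 0.46% and 1.43% of all genes. *Lyzl4os* at day 20 then had a difference of 1.28 (adjusted p = 0.795) and *Sox5os3* at day 22 one of 1.38 (adjusted p = 0.597). Without the 8 libraries with epididymis markers, 0 were called at day 20, 0 at day 22 and 1 over the mean of the days, from 16 libraries, against 0.0175%, 0.45% and 0.316% of all genes. In that fit each group of days 24 and 26 holds 1 library, which is assumed to vary like the other groups.

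Over the mean of the days, 8 antisense genes differed. *Speer4cos* encloses *Speer4c*, a member of a family of near-identical genes, so reads that match several copies were not counted and its level is uncertain. It was at 4.43, 2.81, 5.09 and 3.45 CPM in KO against 2.04, 2.32, 2.08 and 3.17 CPM in WT at day 20, and at 3.27, 3.61, 3.49 and 2.75 CPM against 2.61, 1.59, 1.92 and 1.89 CPM at day 22. At day 24 it was at 3.45 and 5.82 CPM against 1.43 and 2.51 CPM, and at day 26 at 4.41 and 3.90 CPM against 1.27 and 2.15 CPM. KO lay above WT without overlap at days 22, 24 and 26, as in 3.64%, 22.6% and 27.8% of all genes on those days. The log2 ratio of *Speer4cos* to *Speer4c* differed by 0.31 ± 0.247 between genotypes and did not pass (limma, adjusted p = 0.485). The mean log2 difference of *Speer4cos* itself was 0.99 ± 0.152 (edgeR adjusted p = 0.000518). This call was kept in each fit that left out 1 library (adjusted p = 0.000329 to 0.00472), with the stage score (0.85, adjusted p = 0.00797) and without the 8 libraries (1.07, adjusted p = 0.0441), where days 24 and 26 have 1 library a group.

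Between genotypes, the ratio of antisense to host differed in 1 of 85 antisense pairs, 1.18% against 3.44% of all pairs (limma, adjusted p under 0.05). Over all pairs 1.67% were higher and 1.77% lower, where direction mostly follows the strand and not antisense against host.

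Another 6 of the antisense genes higher in KO over the mean of the days were *Lyzl4os* (1.46 ± 0.351, adjusted p = 0.0214), *Vax2os* (0.50 ± 0.116, adjusted p = 0.017), *Plekhd1os* (0.69 ± 0.178, adjusted p = 0.0268), *Cdrt4os1* (1.53 ± 0.415, adjusted p = 0.0322), *Pitpnm2os1* (1.62 ± 0.451, adjusted p = 0.0391) and *Saxo1os* (1.81 ± 0.523, adjusted p = 0.0445). WT had no count of *Pitpnm2os1* or *Saxo1os* at day 20, so both means include a fitted day 20 value that depends on the prior count. From day 22 to day 26 the differences were 0.62, -0.24 and -0.50 for *Pitpnm2os1* and 2.21, 0.76 and -0.17 for *Saxo1os*, and neither mean was called with the replicate block (adjusted p = 0.0601 and 0.0779). *Plekhd1os* starts 125 bases from *Plekhd1* and points away, and the host was higher in KO as well (0.49 ± 0.101, adjusted p = 0.0086). *Vax2os* was at 1.43 to 2.38 CPM in the 4 WT libraries of days 24 and 26 and at 3.11 to 4.25 CPM in the 4 KO libraries. At day 20 it was at 1.96 to 2.53 CPM in WT and 2.48 to 2.90 CPM in KO, and at day 22 at 2.43 to 3.27 CPM and 2.30 to 3.55 CPM. The groups overlapped on both of those days, with log2 differences of 0.24 (adjusted p = 0.716) and 0.09 (adjusted p = 0.942). Its host, the eye homeobox gene *Vax2*, differed by 0.33 ± 0.195 (adjusted p = 0.328). Leaving out 1 library ended the call in 2 of 24 fits for *Lyzl4os* and *Vax2os*, 5 for *Plekhd1os*, 11 for *Cdrt4os1*, 17 for *Pitpnm2os1* and 19 for *Saxo1os*. Without the 8 libraries with epididymis markers, which leaves 1 library a group on days 24 and 26, none of the 6 passed. The differences were then 1.42 for *Lyzl4os*, 0.38 for *Vax2os*, 0.91 for *Plekhd1os*, 1.25 for *Cdrt4os1*, 1.45 for *Pitpnm2os1* and 1.83 for *Saxo1os* (adjusted p = 0.293 to 0.567).

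The 6 most abundant antisense genes are described by their levels. *Cep83os*, which starts 78 bases from the centriole gene *Cep83* and points away, averaged 302 CPM over all libraries, and its group values ran from 203 to 391 CPM in WT at day 20 to 257 and 281 CPM at day 26. *Ccpg1os* averaged 115 CPM, *Trpc5os* 41.9 CPM, *Kcnmb4os1* 39.3 CPM, *Dnm3os* 32.0 CPM and *Med9os* 31.4 CPM. *Kcnmb4os1*, inside the potassium channel subunit gene *Kcnmb4*, rose with age in WT by 0.68 ± 0.210 (adjusted p = 0.0136, and 0.110 without WT_d26_2), and its host rose by 0.57 ± 0.227 (adjusted p = 0.047). *Med9os* rose in KO (1.18 ± 0.315, adjusted p = 0.00413) and changed by -0.19 ± 0.329 in WT (adjusted p = 0.669), a difference of 1.37 ± 0.463 that did not pass (adjusted p = 0.244).

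To compare levels between genes, CPM was divided by exon length in kilobases. On that scale 24 of 86 antisense genes were above their host over all libraries, 20 at day 20 and 26 at day 26 in WT. The median was 1.29 CPM per kb for the antisense genes and 5.26 CPM per kb for their hosts. *Trpc5os* stood at 11.7 CPM per kb and its host, the cation channel gene *Trpc5*, at 0.182 CPM per kb. *Kcnmb4os1* stood at 47.6 against 5.06, *Ccpg1os* at 47.9 against 11, *Cep83os* at 46.1 against 21.9 and *Med9os* at 59.6 against 26.7 CPM per kb.

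**Figure D5:**
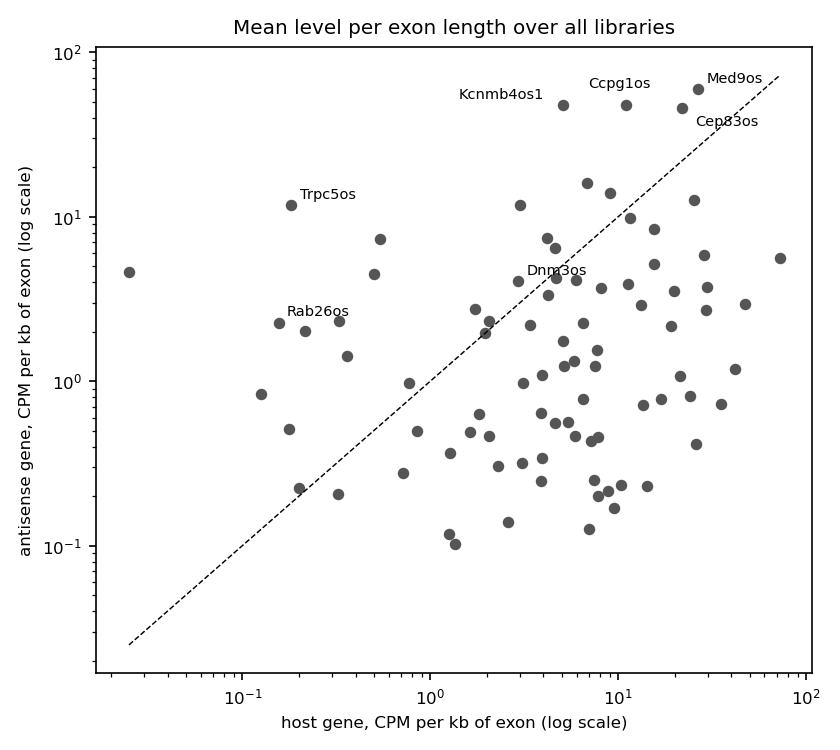
Mean level per kilobase of exon over 24 libraries of each tested antisense gene (vertical axis, CPM per kb, log scale) and its host (horizontal axis, CPM per kb, log scale), with the dashed line at equality. Of 86 pairs, 24 lie above the line, *Trpc5os* and *Kcnmb4os1* among them.

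Counts were taken by strand, and antisense counts were set beside host counts in the 42 tested antisense genes with exons over host exons. The host count covers all host exons, of which only a part lies over the antisense gene. The shares therefore neither measure nor limit how many host reads were counted on the wrong strand. In 9 of them the antisense count was under 1% of the host count, and in 17 it was over 10%. Among the 19 exon-overlapping pairs with the most abundant hosts, whether the antisense gene was tested or not, the share ran from 0.0113% to 15%, with a median of 1.04% and 2 pairs under 0.1%.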

How the data were processed

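Per the labels and the study's methods, RNA was depleted of ribosomal RNA, made into strand-specific libraries and sequenced on a NextSeq 500. The authors aligned reads to mm10 with STAR 2.7.11b and counted those on the gene's strand with HTSeq, discarding reads with several matches. The deposited files hold unscaled counts for each gene, and the gene model version is not given in the sources used here. Reads outside genes made up 45.1% to 58.5% of the counter's output and reads without a unique place 4.74% to 13.7%, and both stayed out of library sizes and tests.

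Counts were scaled by TMM and fitted with edgeR 4.0.16 (R 4.3.3) by its quasi-likelihood test with 8 group terms, after filterByExpr with a minimum count of 10. P-values were adjusted by Benjamini-Hochberg over all 17170 genes tested, with a threshold of 0.05. Ratios of antisense to host, and of plus-strand to minus-strand gene in the other pairs, used limma 3.58.1 on log2 CPM with a prior count of 2, over 1976 pairs. DESeq2 1.42.0 was an alternative. Errors after ± are SE unless named. For edgeR the SE was the size of the log2 change divided by the square root of the F statistic. It is therefore approximate, and a rough guide only for genes with few or no counts in a group. Fitted edgeR changes used that program's default prior count. The code was tested on simulated data. The genes named were at most 12 called between genotypes, in order of adjusted p over the mean of the days, at most 8 called per direction of age in WT with a mean of 1 CPM or more, the 6 highest by level, 3 called pairs per direction of the age ratio, and *Pitpnm2os1*. The members and lists were chosen with earlier results of these data known. No 2 libraries of a group agreed within counting noise. One antisense gene outside the count tables was not analysed here. The values of 1 antisense gene that passed a test are not reported here.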

Additional observations from a re-analysis of the deposited data

Results flagged for a closer look

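In 114 groups of 4 libraries examined, all of named antisense genes, 13 had 1 library far from the other 3. Chance gives about 1 in 20 for continuous values. That rate does not hold for 6 of the 13, which are 1 to 4 counts against 0 in the other 3 libraries, so no excess over chance can be read. In WT_d20_2, *Dnm3os* was at 91.1 CPM (others 38.4 to 46.5), *Phtf1os* at 18.4 (8.03 to 9.59), *Ccpg1os* at 163 (73.1 to 86.6), *Trpc5os* at 65.2 (33.0 to 37.1) and *Tmem132cos* at 0.105 (others 0). In WT_d20_4, *Fancd2os* was at 1.51 CPM (0.578 to 0.737), *Ccdc34os* at 0.288, *Cdrt4os1* at 0.0720 and *Sox5os3* at 0.0720, with 0 in the others for the last 3. *Prkag2os1* was at 0.0786 CPM in WT_d20_1, *Ube4bos3* at 0.542 and *Hmgb4os* at 0.135 in KO_d20_4, and *Med9os* at 46.1 in WT_d22_1 (others 30.0 to 32.0).

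For 7 of the named antisense genes, all KO libraries lay above all WT libraries on at least 1 day and below them on another. Only named genes were searched, no share over all genes was taken, and the difference between days was not tested. *Lyzl4os*, *Pitpnm2os1*, *Fancd2os*, *Dgkeos* and *Zfp85os* were named in part because they were called higher in KO at day 20, so that direction came with the choice. Each rests on day 24 or 26 in 1 direction at least, where KO lay above WT without overlap in 22.6% and 27.8% of all genes and below in 21.4% and 31.1%. The log2 differences at day 20, when KO lay above, and on the day when KO lay below were 4.5 and -0.29 for *Lyzl4os* and 2.41 and -0.48 for *Fancd2os*. They were 0.85 and -0.25 for *Dgkeos*, 1.28 and -0.73 for *Zfp85os*, and 6.60 and -0.50 for *Pitpnm2os1*. The 6.60 is a fitted value that depends on the prior count, since WT had no count at day 20, and the bound is 1.32. The differences on the days above and below were 0.62 at day 24 and -0.12 at day 26 for *Trpc5os*, and 0.30 at day 26 and -0.31 at day 24 for *Kcnmb4os1*. Days 24 and 26 have 2 libraries a group.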

How the results depend on the processing

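No result reversed under an alternative. Relative to their size, counts of antisense genes called between genotypes moved most. Shares of all genes called in the same fit are in parentheses. With the replicate block, day 22 gave 1 (1.37%), and the block gave 5 at day 20 (1.94%), 6 over the mean of the days (5.23%), 40 and 45 with age in WT and KO (45.2% and 53.2%), and 45 and 1 for the age and genotype ratios (60.4% and 3.29% of all pairs). Same-numbered libraries of both genotypes deviated with correlations of 0.035 to 0.412 at day 20, -0.451 to 0.013 at day 22, 0.345 at day 24 and 0.372 at day 26. Not every pair was over 0.1 and no label gives the number a meaning, so the numbers were not taken as pairs. As a hint from the data, 13 of 24 libraries best matched their own number. With 2 libraries a group, 1 correlation decides the match of all libraries of a day, so days 24 and 26 add little to that count. Libraries with epididymis markers over 20 CPM had the same number in both genotypes on days 20, 24 and 26, and different numbers on day 22. With the stage score, day 20 gave 0 (0.0233%), day 22 0 (0.46%) and the mean 2 (1.43%). With only the libraries compared, day 20 gave 0 (0.0328%), day 22 0 (0.438%) and day 26 9 (12.8%). With DESeq2, day 20 gave 8 (5.05%), day 22 9 (4.08%), the mean 14 (9.65%) and the age difference between genotypes 3 (1.29%). Without the 8 libraries with epididymis markers, an alternative chosen after seeing the data, day 20 gave 0 (0.0175%), day 22 0 (0.45%), the mean 1 (0.316%) and the genotype ratio 0 (0%), while age gave 29 in WT (18.8%) and 30 in KO (21.7%). Days 24 and 26 then have 1 library a group, assumed to vary like the other groups, as when a library of those days is left out below. *Wdr83os* was then the only one of the 6 named falls still called. The cause of these moves was not tested.

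Leaving out 1 library gave 1 to 8 at day 20, 0 to 8 at day 22, 0 to 0 at days 24 and 26, 1 to 15 over the mean of the days, 0 to 5 for the age difference between genotypes, 35 to 44 with age in WT, 34 to 48 in KO, 44 to 52 for the age ratio and 0 to 4 for the genotype ratio. Day 20 gave 1 without WT_d20_3 (0.882%) and 8 without KO_d20_2 (4.55%). Day 22 gave 0 without KO_d22_2 (0.571%), WT_d22_2 (0.815%), WT_d22_3 (0.432%) or WT_d22_4 (0.35%), and 8 without KO_d22_1 (5.0%). The mean gave 1 without WT_d24_2 (1.73%) and 15 without KO_d20_2 (9.51%). Age in KO gave 48 without WT_d20_2 (59.1%), and the age difference between genotypes gave 5 without KO_d20_2 (1.9%). The genotype ratio gave 4 without KO_d22_1 (5.34% of all pairs). Depth limits genes under a few counts per library.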
